A study of Mus musculus with 18 samples.

Results

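The collagen chain genes encode the protein chains from which collagens are assembled. They were taken as every gene symbol made of Col, a number, the letter a and a second number. The deposited tables held 24346 symbols, of which 44 met this rule, and all 44 were listed for both cell lines. By the collagen that their chains build, 11 are fibrillar, 6 are type IV and 27 are other chains. The other chains were 9 fibril-associated, 6 beaded filament, 4 transmembrane, 3 network, 2 multiplexin and 3 anchoring or unclassified ones.

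RNA-seq was compared between wt and *Kdm6a* KO female mouse ES cells of 2 hybrid lines, to ask what loss of this histone demethylase does during differentiation. *Tsix*-stop cells come from a cross with *Mus castaneus* (*cast*) and carry a transcription stop in *Tsix* on the X that is not from *cast*, so that the non-*cast* X is the one that is silenced. They gave 2 wt, 2 *Kdm6a* KO and 1 CRISPR control library at D0, as undifferentiated ES cells, and again at D15, as EBs. E8 cells (BL6 × *cast*), in which either X can be silenced, gave 2 wt and 2 *Kdm6a* KO libraries at D7 and at D15. Cells of both lines were kept with LIF and serum on feeder fibroblasts, which were depleted before use, and were then differentiated as EBs without LIF and plated on gelatin. The *Tsix*-stop KO removes a part of *Kdm6a* between exons 2 and 4 on both alleles, and the study describes 2 such clones without the labels tying a library to a clone. The E8 KO is described as 1 clone that lacks the promoter of *Kdm6a* on both alleles, but its tables carry another clone number than the study's text, and the text describes E8 libraries of earlier days than the labels do, so which clone these libraries are is not certain. The CRISPR control is labelled only as a negative control, while the names of its deposited tables call it a KO. The study describes its CRISPR control for RNA-seq as 1 clone that was treated and left unedited. The name CRISPR control is kept here for this label, and its levels are given beside those of the *Tsix*-stop KO.

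Collagens are extracellular proteins whose chains wind around each other into a stiff helix. Fibrillar chains, led by types I, III and V, form the fibrils of connective tissue and are made mostly by mesenchymal cells. Type IV chains form the sheet of the basement membrane, the layer that epithelia and endoderm rest on, and are made early by the extraembryonic endoderm of the mouse embryo. The other chains join fibrils to their surroundings, form beaded filaments or span the cell membrane.

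The *Tsix*-stop libraries held between 51091152 and 68796179 counts, and the depth of the E8 libraries is unknown since only TPM was deposited. *Kdm6a* was at 46.7 to 47.8 TPM in E8 wt and at 0.00578 to 0.0319 TPM in E8 KO. In *Tsix*-stop cells the deletion leaves most of the transcript to be counted. There *Kdm6a* was at 48.9 to 85.7 TPM in wt, 12.8 to 55.6 TPM in KO and 43.5 to 53.7 TPM in the CRISPR control. Its gene count therefore does not check these labels. *Pou5f1*, a defining gene of ES cells, was between 846 and 2481 TPM over the 18 libraries, those of D15 included. The wt D0 replicates differed in 2 collagens, with 121 counts of *Col12a1* in replicate 2 against 5 in replicate 1 and 41 counts of *Col8a1* against 0. These 2 genes were chosen after their values were seen. Over the 36 members tested, wt D0 replicates had a median log2 difference of 0.172, against 0.18 over all genes tested. In *Tsix*-stop KO D15 it was 0.32 over the members against 0.156 over all genes, and at most 2.28, for *Col1a2*. The study calls its *Tsix*-stop wt replicates biological and takes the KO ones from separate clones. For E8 cells nothing says that the replicates deposited came from separate cultures, so p-values there measure the spread between these libraries, which may be technical. In bulk libraries, fewer cells of a type and less RNA per cell cannot be told apart.

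**Figure D1:**
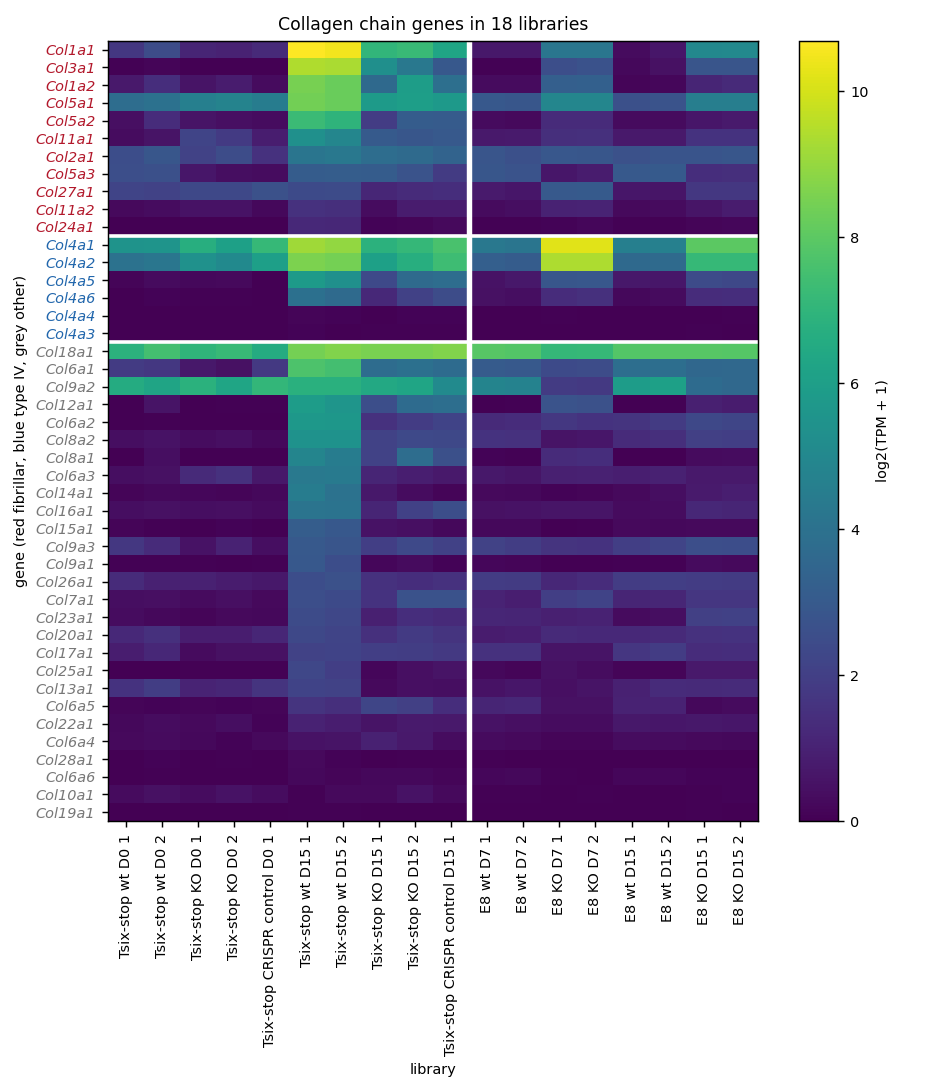
Level of the 44 collagen chain genes (rows; red fibrillar, blue type IV, grey other names) in the 18 libraries (columns) as log2(TPM + 1), with brighter colours for higher levels and each class ordered by its mean in *Tsix*-stop wt D15. The *Tsix*-stop wt D15 columns are brightest in the fibrillar block, and the E8 KO D7 columns are brightest in *Col4a1* and *Col4a2*.

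At D15 *Tsix*-stop wt EBs made much more collagen mRNA than wt ES cells, and fibrillar chains led. The summed level of the 11 fibrillar genes was 30.3 and 38.0 TPM in the wt D0 libraries and 3268 and 2896 TPM in the wt D15 libraries. The 6 type IV genes together were at 59.0 and 63.4 TPM at D0 and at 1020 and 897 TPM at D15. The 27 other genes rose least in their sum, from 226 and 269 TPM to 961 and 949 TPM. All 44 genes held 0.0315% and 0.0371% of the summed TPM of the wt D0 libraries and 0.525% and 0.474% at D15.

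Of the 44 genes 36 passed the filter of 2.5 CPM, which are counts scaled to the library total, in at least 2 libraries, and 6 of these reached it only in wt D15, where they had to be high. Genes were called with edgeR at an FDR of at most 0.1 and a change of at least 2-fold. In wt, 32 members were called higher at D15 than at D0 and 0 lower, where 24.2% of the 13121 genes tested were called higher and 13.6% lower. Called were 9 of 11 fibrillar, 4 of 6 type IV and 19 of 27 other genes. Without the filter, the median log2 change over all 44 was 4.10, or 3.93 with genes at 0 counts set to a floor of 3 counts per library, and the median over all genes was 0.00.

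*Col1a1* and *Col1a2*, on chromosomes 11 and 6, encode the chains of type I collagen, the main fibril of bone, tendon and skin. *Col1a1* was at 2.28 and 4.66 TPM in wt D0 and at 1655 and 1459 TPM in wt D15, a log2 change of 8.66 ± 0.34 (SE; edgeR adjusted p = 1.3e-06). *Col1a2* was at 0.646 and 1.60 TPM and then at 363 and 306 TPM. *Col3a1*, on chromosome 1 (45311538 to 45349706 on GRCm38), encodes type III collagen of soft connective tissue. It had 7 and 16 counts in wt D0 and 110238 and 92245 counts in wt D15. The groups lay far apart for all 3 genes.

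In the KO, 30 members were called higher at D15 than at D0 and 2 lower, beside 20.0% and 7.66% of all genes tested. The 2 lower ones were *Col27a1*, a fibrillar chain of cartilage, and *Col13a1*, a transmembrane chain. The summed fibrillar level went from 37.5 and 40.9 TPM at D0 to 268 and 328 TPM at D15, so collagen mRNA rose in KO cells too and reached a lower level than in wt. In the control it went from 31.7 to 182 TPM.

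**Figure D2:**
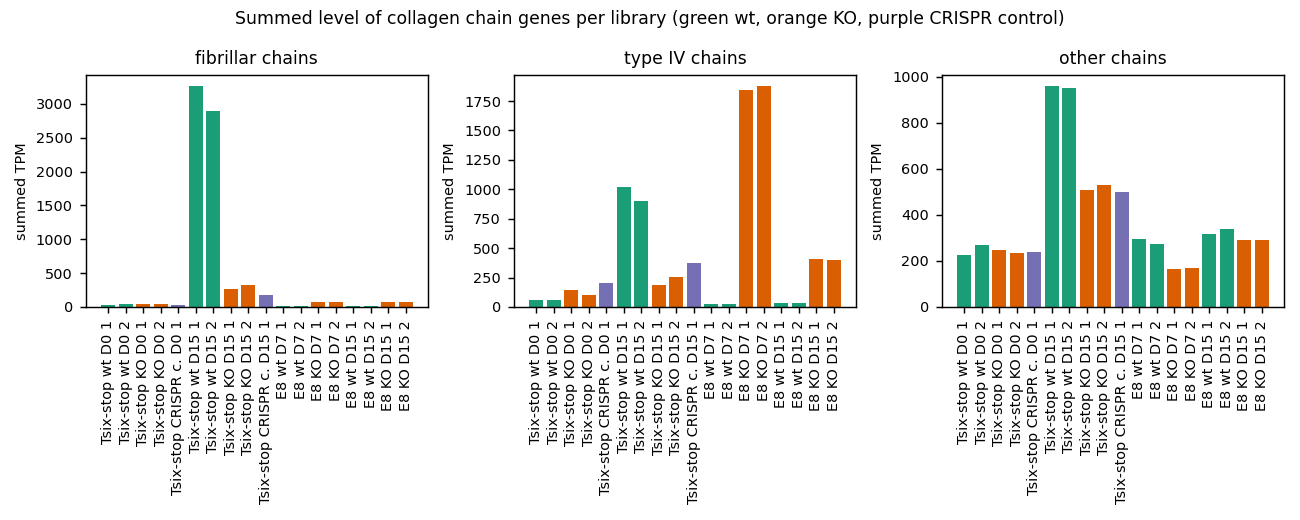
Summed TPM (vertical axes, from 0, each with its own scale) of the 11 fibrillar, 6 type IV and 27 other collagen chain genes in each library (bars; green wt, orange KO, purple CRISPR control). Fibrillar sums reach 3268 and 2896 TPM in *Tsix*-stop wt D15 and stay at or below 328 TPM elsewhere, while type IV sums are highest in E8 KO D7 at 1846 and 1881 TPM.

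The comparison of *Tsix*-stop KO with wt at D15 asked which chains differed with *Kdm6a* loss in EBs. Of the members, 26 were called lower and 0 higher in KO, where 11.1% of all genes tested were called lower and 3.83% higher. Called lower were 9 of the 11 fibrillar genes, 4 of the 6 type IV genes, which are all 4 that passed the filter, and 13 of the 27 other genes. Of the 26, 7 reached the filter in wt groups alone, 6 of them in wt D15 alone, so they could only be tested because they were high there, and the count is no support by itself. Without the filter the median log2 change over the 44 genes was -2.02, against 0.01 over all genes, and it was -2.37 for fibrillar, -2.02 for type IV and -1.62 for other chains. With 2 libraries against 2, an exact permutation test of any single sum cannot give a 2-sided p under 0.333.

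Type I and III chains were lower in both KO libraries. *Col1a1* had 13324 and 14216 counts in KO against 178231 and 140984 in wt, a log2 change of -3.46 ± 0.26 (adjusted p = 0.00016). *Col1a2* differed most between the KO libraries, at 11.7 and 60.5 TPM against 363 and 306 TPM in wt, and still changed by -3.23 ± 0.66 on the log2 scale (adjusted p = 0.0073). *Col3a1* was at 38.8 and 18.5 TPM against 685 and 638 TPM, a log2 change of -4.51 ± 0.36 (adjusted p = 0.00018). The wt and KO libraries did not overlap for any of these genes.

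Among the called members the largest falls were those of 2 fibril-associated chains and a type V chain, and the former, *Col14a1* and *Col9a1*, passed the filter in wt D15 alone. *Col14a1*, whose product binds to the surface of fibrils, was at 21.5 and 15.3 TPM in wt and 0.626 and 0.272 TPM in KO, a log2 change of -5.33 ± 0.41 (adjusted p = 0.00016). *Col9a1*, a chain of the type IX collagen that decorates cartilage fibrils, was at 6.70 and 4.84 TPM in wt and 0.138 and 0.237 TPM in KO. *Col5a2*, a chain of type V collagen, which starts fibrils, was at 157 and 123 TPM in wt and 2.75 and 7.69 TPM in KO, a log2 change of -4.76 ± 0.60 (adjusted p = 0.001). *Col6a1*, a chain of the beaded filaments that link cells to matrix, was at 206 and 181 TPM in wt and 12.8 and 14.3 TPM in KO (log2 change -3.84 ± 0.17, adjusted p = 2.8e-05).

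Type IV chains fell less than these. *Col4a1* and *Col4a2* encode the common chains of basement membranes. *Col4a1* was at 568 and 497 TPM in wt and 115 and 140 TPM in KO, a log2 change of -2.06 ± 0.20 (adjusted p = 0.00039). *Col4a2* was at 382 and 347 TPM in wt and 67.2 and 102 TPM in KO (-2.11 ± 0.20, adjusted p = 0.00032). The X-linked *Col4a5*, a chain of other basement membranes, was at 55.3 and 40.5 TPM in wt and 4.20 and 11.8 TPM in KO (-2.59 ± 0.42, adjusted p = 0.0028). Its neighbour *Col4a6* was at 14.5 and 11.9 TPM in wt and 1.37 and 3.14 TPM in KO (-2.56 ± 0.38, adjusted p = 0.002). *Col4a3* and *Col4a4*, the chains of the mature kidney filter, did not pass the filter and had at most 19 counts in any library.

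The 10 members tested and not called at D15 were *Col2a1*, *Col5a3*, *Col6a5*, *Col7a1*, *Col8a1*, *Col9a2*, *Col9a3*, *Col17a1*, *Col18a1* and *Col20a1*. *Col18a1*, a basement membrane proteoglycan and the source of endostatin, was at 354 and 400 TPM in wt and 375 and 377 TPM in KO, a log2 difference of 0.00 ± 0.18, and the libraries overlapped. *Col9a2*, the second chain of type IX collagen, was at 108 and 109 TPM in wt and 87.5 and 77.1 TPM in KO (-0.40 ± 0.21, adjusted p = 0.16). *Col6a5* had the only positive value past an FDR of 0.1, at 0.85 ± 0.26 on the log2 scale, which is under 2-fold.

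Transcripts of several differentiated cell types moved with these values. The 12 markers fixed for fibroblasts and mesenchyme summed to 383 to 425 TPM in wt D15, 56.0 to 61.1 TPM in KO D15 and 48.5 TPM in the CRISPR control, and 9 of the 10 tested were called lower in KO. The 8 visceral endoderm markers summed to 617 to 707 TPM in wt D15, 23.3 to 46.0 TPM in KO and 18.6 TPM in the control. The 7 parietal endoderm markers summed to 417 to 471, 147 to 164 and 198 TPM, and the 6 cardiac muscle markers to 126 to 160, 32.7 to 43.7 and 28.0 TPM. The 7 chondrocyte markers, at 61.5 to 62.1 TPM in wt, 51.8 to 72.8 TPM in KO and 68.9 TPM in the control, overlapped in their sum, which *Matn3* led, while *Sox9* (-2.25 ± 0.40) and *Hapln1* (-3.29 ± 0.39) were called lower in KO and 0 of the 6 tested higher. The 5 endothelium markers, led by *Pecam1*, overlapped in their sum as well, at 122 to 125 TPM in wt and 108 to 137 TPM in KO, with 71.1 TPM in the control, while *Kdr* (-2.80 ± 0.56) and *Cdh5* (-1.78 ± 0.73) were called lower and 0 higher. The 5 osteoblast markers were at 208 to 236, 237 to 295 and 209 TPM, led by *Alpl* (0.27 ± 0.15, not called). Of the 2 osteoblast markers tested, 1 was called lower in KO and 0 higher. *Ibsp*, which marks osteoblasts more closely, was at 0 in the 5 *Tsix*-stop D15 libraries. The 4 skin epithelium markers reached at most 5.93 TPM in sum. The 8 ES cell markers summed to 8694 to 9353 TPM in wt, 11203 to 14053 TPM in KO and 7907 TPM in the control. The part of these differences in the collagen values was not tested.

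The CRISPR control library had collagen levels near those of the KO at D15. Of the 37 members with at least 1 TPM in a wt or KO library, both KO libraries were below both wt libraries in 34 and above in 1, where 38.0% and 34.7% of such genes lay below and above. The control was below both wt libraries in 35 of the 37, beside 40.0% of all such genes. Among the 35 members whose KO and wt libraries did not overlap, it was on the KO side in 34, the exception being *Col6a5*. *Col1a1* was at 77.3 TPM in the control, *Col1a2* at 13.9 TPM, *Col3a1* at 6.75 TPM, *Col5a2* at 7.37 TPM, *Col6a1* at 12.4 TPM and *Col14a1* at 0.114 TPM. Type IV chains were also below wt there, with *Col4a1* at 194 TPM, *Col4a2* at 163 TPM, *Col4a5* at 13.3 TPM and *Col4a6* at 4.53 TPM. *Col9a2*, at 33.7 TPM, was lower in the control than in wt or KO. With the control counted as wt, 21 members were called lower in KO at D15 and *Col1a2* was no longer among them. Over X-linked genes the control was nearer to wt at D15, with a median non-*cast* share of reads of 32.9% against 29.1% and 31.6% in wt and 45.7% and 41.3% in KO. The label and the table names cannot both hold, and the collagen levels were not used to choose between them.

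**Figure D3:**
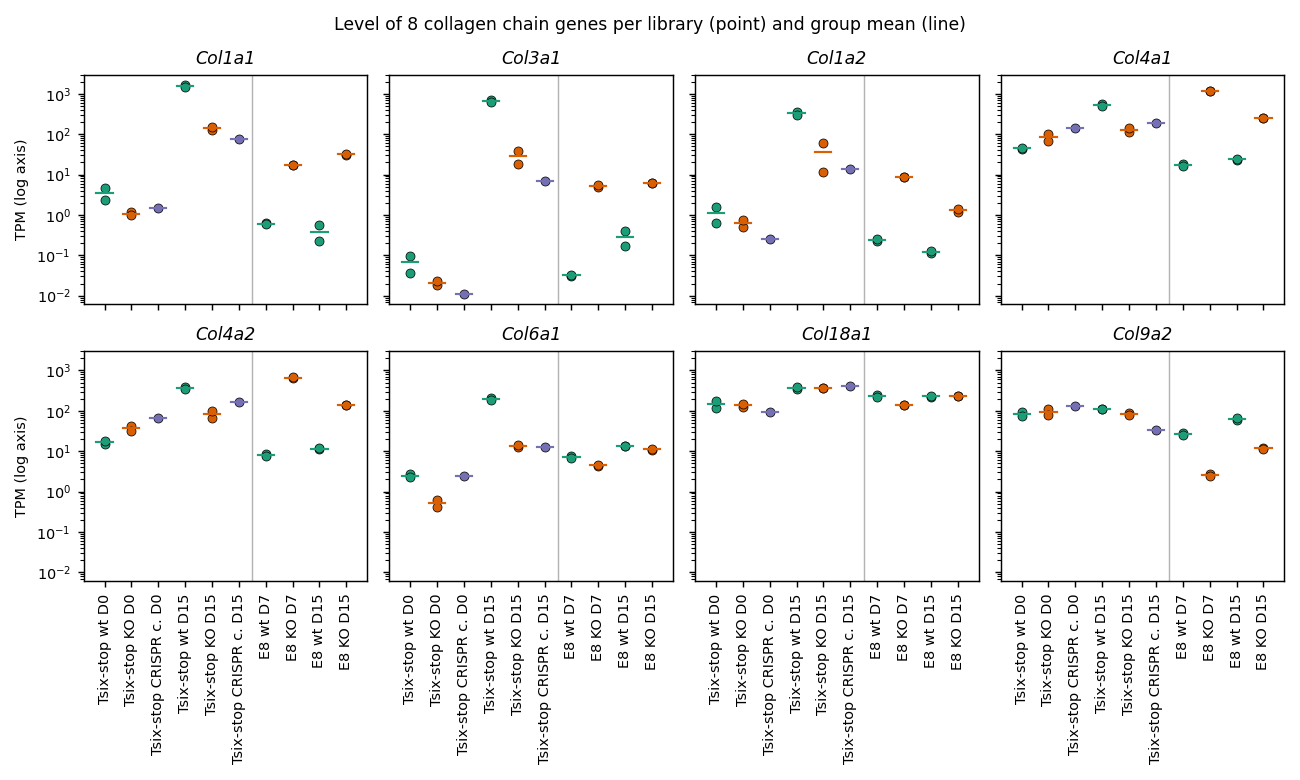
TPM on a log axis of 8 collagen chain genes in each group (points, libraries; lines, group means; green wt, orange KO, purple CRISPR control; vertical line between *Tsix*-stop and E8). At *Tsix*-stop D15 the KO and control points sit below wt for *Col1a1*, *Col3a1*, *Col1a2*, *Col4a1*, *Col4a2* and *Col6a1*, and *Col18a1* stays between 94.7 and 401 TPM in every library.

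In undifferentiated *Tsix*-stop cells at D0 the differences between KO and wt were fewer and went both ways. Of the members, 4 were called higher and 7 lower in KO, where 3.11% and 5.01% of all genes tested were called. Called higher were *Col4a2*, *Col6a3*, *Col11a1* and *Col25a1*. Called lower were *Col1a1*, *Col5a3*, *Col6a1*, *Col9a3*, *Col13a1*, *Col17a1* and *Col20a1*. Of the 19 members with at least 1 TPM in a wt or KO library at D0, both KO libraries lay below both wt libraries in 9 and above in 6, beside 21.1% and 39.2% of such genes. The control lay below both wt libraries in 10, beside 33.3%, and was on the KO side in 13 of these 15. Leaving out KO D0 replicate 1 left 6 calls in place of 11, and leaving out wt D0 replicate 2 left 8. With the CRISPR control counted as wt, edgeR called 0 members and 20 genes in all.

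*Col5a3*, a type V chain, had the largest fall among the members called at D0. It was at 4.86 and 5.10 TPM in wt and 0.560 and 0.327 TPM in KO, a log2 change of -3.60 ± 0.30 (adjusted p = 0.00071), and at 0.291 TPM in the control. By D15 it was at 7.61 and 7.90 TPM in wt and 7.56 and 5.64 TPM in KO. *Col6a1* was at 2.66 and 2.32 TPM in wt D0 and 0.612 and 0.404 TPM in KO D0 (-2.41 ± 0.21, adjusted p = 0.00083), but at 2.45 TPM in the control, between the wt libraries. *Col17a1*, a transmembrane chain of epithelial anchors, was at 0.815 and 1.28 TPM in wt, 0.258 and 0.389 TPM in KO and 0.403 TPM in the control.

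Of the members called higher at D0, *Col4a2* alone was above 10 TPM in wt. *Col11a1*, a fibrillar chain best known from cartilage, had 75 and 102 counts in wt, 774 and 554 counts in KO and 189 counts in the control (log2 change 2.87 ± 0.28, adjusted p = 0.0011). *Col6a3* had 71 and 78 counts in wt, 284 and 390 counts in KO and 134 counts in the control. *Col25a1*, a transmembrane chain found in neurons, had 2 counts in each wt library and 12 and 9 counts in KO, and its call was lost when any one D0 library was left out. *Col4a1* was at 43.4 and 45.4 TPM in wt, 102 and 66.0 TPM in KO and 143 TPM in the control, and *Col4a2* at 15.5 and 17.6, 42.0 and 32.4, and 64.8 TPM. *Col4a2* passed the call (1.05 ± 0.19, adjusted p = 0.012) but not without KO D0 replicate 1, and *Col4a1*, at 0.81 ± 0.20, was under 2-fold. *Col5a1*, the main type V chain, was at 13.3 and 14.7 TPM in wt, 23.4 and 26.9 TPM in KO and 21.2 TPM in the control, a log2 difference of 0.73 ± 0.11 (adjusted p = 0.005) that is also under 2-fold. Fibroblast markers summed to 20.0 to 26.6 TPM in wt D0, 16.8 to 17.0 TPM in KO and 16.8 TPM in the control, with *Fap* at 0 in all 5 D0 libraries. Parietal endoderm markers summed to 90.1 to 116, 107 to 132 and 164 TPM in the same order.

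The interaction of KO and day tested whether the rise between D0 and D15 differed between KO and wt. It was called lower for 20 members and higher for 2, beside 10.5% and 6.62% of all genes tested. Of the 20, 6 reached the filter in wt groups alone, 5 of them in wt D15 alone, so the count is no support by itself. Without the filter the median interaction over the 44 genes was -1.69 on the log2 scale, against 0.05 over all genes. The 2 higher ones were *Col5a3* and *Col17a1*, whose KO level was low at D0 and near wt at D15. The largest values were those of *Col6a3* (-6.36 ± 0.32, adjusted p = 4.2e-05), *Col25a1* (-6.03 ± 0.79, adjusted p = 0.0023) and *Col11a1* (-5.25 ± 0.38, adjusted p = 0.00029), which were above wt in KO at D0 and below wt at D15. The value of *Col25a1* rests on 2 counts in each wt D0 library, and its size depends on the fit at such counts. In the control *Col25a1* had 14 counts at D0 and 91 at D15, *Col6a3* was at 0.617 and 0.674 TPM, and *Col11a1* at 0.817 and 6.91 TPM. *Col6a3* was at 1.41 and 1.86 TPM in KO D0 and 1.16 and 0.886 TPM in KO D15, while wt went from 0.300 and 0.391 TPM to 19.1 and 19.4 TPM. Leaving out wt D15 replicate 1 left 13 calls of 22, with 30 in place of 36 members tested, and counting the CRISPR control as wt left 2.

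**Figure D4:**
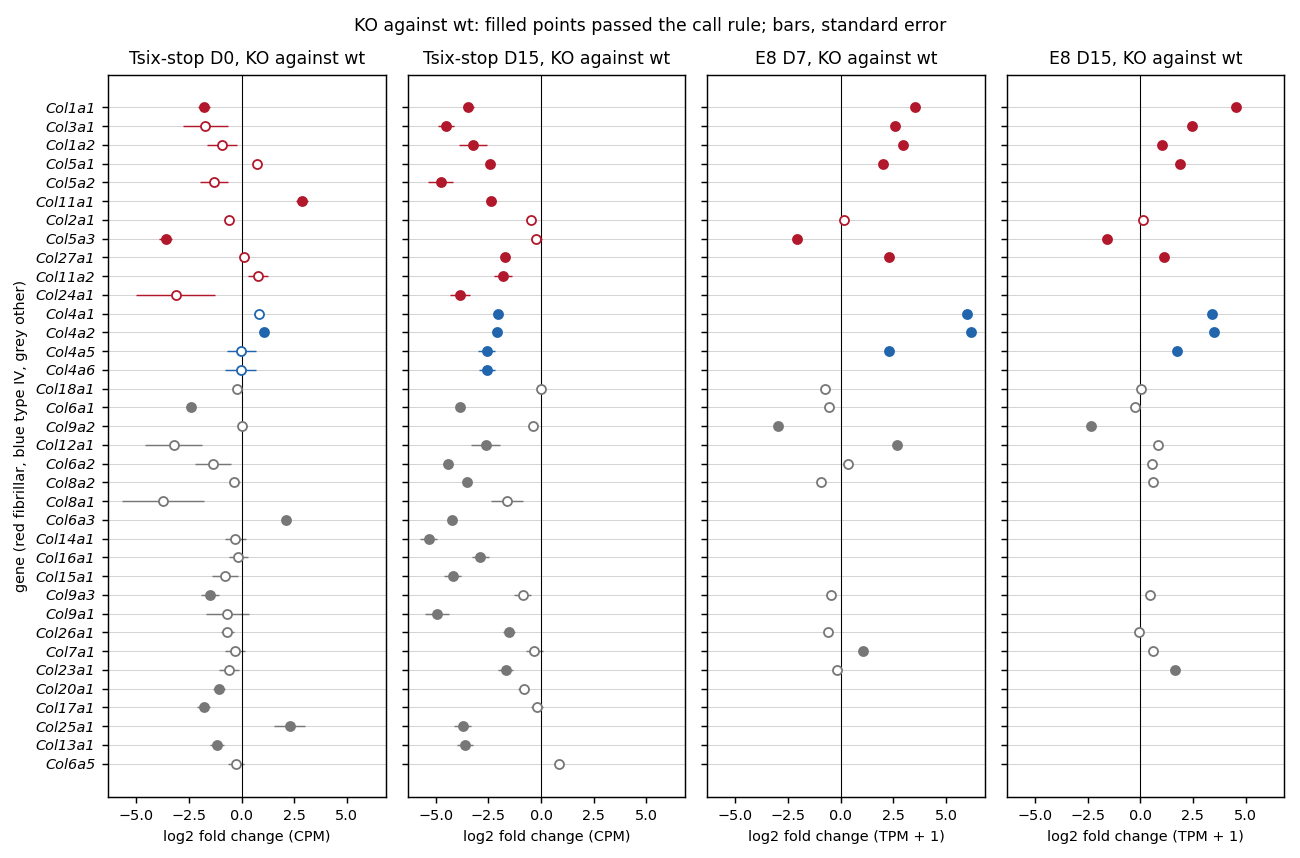
Log2 fold change of KO against wt (horizontal axes; of CPM in *Tsix*-stop cells, of TPM + 1 in E8 cells) for the collagen chain genes that passed the filter of the line (rows), with bars for the standard error; filled points passed the call rule (red fibrillar, blue type IV, grey other). In *Tsix*-stop D15 the 26 filled points lie left of 0, and in E8 D7 and D15 10 and 9 of the filled points lie right of 0 and 2 left.

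E8 cells showed the reverse direction for fibrillar and type IV chains. The E8 wt libraries of D15 had ES cell markers at 16773 to 17548 TPM in sum, led by *Dppa5a*. Undifferentiated *Tsix*-stop wt cells had a lower sum of 13283 to 14034 TPM, also led by *Dppa5a*, on separately normalized scales. *Nanog* went the other way, at 638 and 667 TPM in E8 wt D15 against 1193 and 1291 TPM in *Tsix*-stop wt D0. *Pou5f1* did as well, at 1865 and 2044 TPM against 2283 and 2332 TPM. E8 wt libraries held little fibrillar collagen mRNA, with summed levels of 22.0 and 19.7 TPM at D7 and 19.3 and 21.5 TPM at D15. E8 KO libraries were at 77.9 and 79.8 TPM at D7 and 74.3 and 75.8 TPM at D15. The type IV sum was 27.6 and 25.4 TPM in wt D7 and 1846 and 1881 TPM in KO D7, and 35.7 and 36.9 TPM in wt D15 and 406 and 403 TPM in KO D15. The other chains summed to less in KO at D7, at 166 and 171 TPM against 294 and 275 TPM in wt, most of it *Col18a1*.

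Of the 44 genes 20 passed 2.5 TPM in at least 2 E8 libraries, and 6 of these reached it in 1 KO group alone. With limma on log2(TPM + 1), which understates changes of low genes, 10 members were called higher and 2 lower in KO at D7, beside 11.4% and 6.18% of the 12452 genes tested. At D15, 9 were called higher and 2 lower, beside 7.67% and 3.08%. The filter favoured these calls, since 7 of the 10 called higher at D7 and 6 of the 9 at D15 reached it in KO groups alone, and *Col5a3*, called lower, in wt groups alone. On both days the fibrillar calls were 5 higher and 1 lower and the type IV calls 3 higher. Over all 44 genes without the filter, the median log2 difference was 0.05 at D7 and 0.30 at D15, against 0.01 and 0.03 over all genes. Of the members with at least 1 TPM in an E8 library, KO and wt did not overlap in any of 28 at D7, with KO higher in 18 and lower in 10, where 51.3% and 38.7% of such genes did. At D15 it was 18 of 26 above and 5 below, where 51.3% and 35.2% did. E8 replicates lay close together, with a median difference over all genes tested of at most 0.0688 on the log2 scale. Over the 20 members tested the median was at most 0.0983, and the largest difference was 0.339, that of *Col1a1* in wt D15. The E8 KO is described as 1 clone, so small p-values here do not cover the spread between clones.

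*Col4a1* and *Col4a2* had the largest differences. *Col4a1* was at 18.3 and 16.7 TPM in wt D7 and 1175 and 1201 TPM in KO D7, a ratio of means of 68.0 and a log2 difference of 6.01 ± 0.04 (limma adjusted p = 3.7e-10). *Col4a2* was at 8.51 and 7.74 TPM in wt D7 and 662 and 672 TPM in KO D7 (6.20 ± 0.04). At D15 *Col4a1* was at 23.4 and 24.3 TPM in wt and 258 and 255 TPM in KO, and *Col4a2* at 11.5 and 11.8 TPM and 142 and 143 TPM. Both remained above wt by less than at D7. The X-linked *Col4a5* was at 0.431 and 0.633 TPM in wt D7 and 6.22 and 6.57 TPM in KO D7 (2.27 ± 0.09), and *Col4a6*, which did not pass the filter, at 0.414 and 0.326 TPM and 1.54 and 1.81 TPM.

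Type I chains were also higher in E8 KO, at levels far below those of *Tsix*-stop wt EBs. *Col1a1* was at 0.622 and 0.594 TPM in wt D7 and 17.3 and 17.5 TPM in KO D7 (3.51 ± 0.10, adjusted p = 7.2e-08). At D15 it was at 0.225 and 0.549 TPM in wt and 31.1 and 31.9 TPM in KO (4.56 ± 0.10). *Col1a2* was at 0.225 and 0.248 TPM in wt D7 and 8.54 and 8.82 TPM in KO D7, and at 0.114 and 0.125 TPM against 1.17 and 1.41 TPM at D15, where its call was lost without KO D15 replicate 2. *Col3a1* was at 0.0307 and 0.0327 TPM in wt D7 and 4.85 and 5.39 TPM in KO D7, and its D15 difference was 2.47 ± 0.10.

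A type IX chain and a type V chain were lower in E8 KO on both days. *Col9a2* was at 27.6 and 25.6 TPM in wt D7 and 2.66 and 2.43 TPM in KO D7 (-2.96 ± 0.07, adjusted p = 3e-08). At D15 it was at 59.2 and 66.3 TPM in wt and 12.2 and 11.3 TPM in KO (-2.32 ± 0.07). *Col5a3* was at 6.25 and 5.63 TPM in wt D7 and 0.567 and 0.759 TPM in KO D7 (-2.06 ± 0.08), and at 6.83 and 7.18 TPM against 1.65 and 1.68 TPM at D15 (-1.59 ± 0.08). *Col18a1* was at 240 and 224 TPM in wt D7 and 137 and 141 TPM in KO D7, a difference under 2-fold, and at 224 and 238 TPM and 238 and 236 TPM at D15. *Col6a1* was at 7.41 and 6.88 TPM in wt D7 and 4.33 and 4.65 TPM in KO D7, also under 2-fold.

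Endoderm transcripts were high in the same E8 KO libraries. The 7 parietal endoderm markers summed to 105 to 112 TPM in wt D7 and 2118 to 2165 TPM in KO D7, all 7 called higher, and to 102 to 106 TPM and 396 to 405 TPM at D15. They include *Lama1* and *Lamb1*, which are laminin chains of the basement membrane. Of the others, *Pth1r* and *Srgn* were at 180 and 394 TPM in KO D7 replicate 1. The 8 visceral endoderm markers summed to 10.3 to 11.6 TPM in wt D7 and 1113 to 1117 TPM in KO D7, all 8 called higher, and to 6.95 to 7.48 TPM and 237 TPM at D15. Fibroblast markers summed to 39.6 to 40.0 TPM in wt D7 and 80.9 to 84.4 TPM in KO D7. Of 7 tested, 5 were called higher and 1 lower. *Thy1*, which led in wt, went from 32.4 TPM in both wt D7 libraries to 2.21 and 1.86 TPM in KO D7. *Pdgfra*, which led in KO D7, went from 1.28 and 1.3 TPM to 45.5 and 43.5 TPM. ES cell markers summed to 13134 to 13246 TPM in wt D7 and 4456 to 4593 TPM in KO D7. The cardiac muscle sum, led by *Myl7*, was 22.7 to 24.3 TPM in wt D7 and 10.0 to 10.7 TPM in KO D7. Of 2 cardiac markers tested, 1 was called lower and 0 higher. *Myh7* and *Actc1* were under 1 TPM in every wt D7 library and reached 1 TPM in KO D7. The endothelium sum, led by *Pecam1*, was 78.0 to 81.6 TPM in wt D7 and 39.2 to 40.5 TPM in KO D7. Of 3 endothelium markers tested, 1 was called lower and 0 higher. The chondrocyte sum, led by *Matn3*, was 27.1 to 28.1 TPM in wt D7 and 12.1 to 14.0 TPM in KO D7. All 3 chondrocyte markers that were tested were called lower. *Sox9* and *Comp*, which were not tested, were under 1 TPM in every wt D7 library and reached 1 TPM in KO D7. The osteoblast sum was 167 to 180 TPM in wt D7 and 78.8 to 82.7 TPM in KO D7, nearly all of it *Alpl*. The other 4 osteoblast markers were under 1 TPM in every D7 library. At D15 the cardiac sum was higher in KO, at 14.2 to 16.0 TPM against 11.6 to 13.7 TPM in wt, and the chondrocyte sum was 29.0 to 29.8 TPM in wt and 27.4 to 28.7 TPM in KO. ES cell markers were at 7721 to 7933 TPM in KO D15. The part of these cells in the collagen values was not tested.

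Between E8 D7 and D15 the calls were as follows. In wt 1 member, *Col9a2*, was called higher and 0 lower, beside 0.586% and 0.819% of all genes tested. In KO 4 were called higher and 5 lower, beside 3.41% and 2.70%. The lower ones were *Col1a2*, *Col4a1*, *Col4a2*, *Col12a1* and *Col27a1*, and the higher ones *Col6a1*, *Col8a2*, *Col9a2* and *Col23a1*. Of these, *Col1a2*, *Col12a1* and *Col27a1* passed the filter in KO D7 alone and *Col8a2* and *Col23a1* in KO D15 alone, and no member passed in 1 wt group alone, so the counts of wt and KO are not comparable. The interaction of KO and day was called higher for 3 members and lower for 5, beside 3.89% and 3.36%, and its largest values were -2.69 ± 0.06 for *Col4a2*, -2.63 ± 0.06 for *Col4a1* and -1.94 ± 0.11 for *Col1a2*. It was called for 5 members when either KO D7 library was left out, with 16 in place of 20 tested.

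Values of the 2 lines were normalized separately and are set side by side. Of the 26 members with at least 1 TPM in both lines at D15, 17 had both KO libraries below both wt libraries in *Tsix*-stop cells and above them in E8 cells, where 25.7% of all such genes did. Among them were 7 of 8 fibrillar and 4 of 4 type IV genes. Another 4 members, *Col5a3*, *Col6a1*, *Col9a2* and *Col17a1*, lay on the same side in both lines, beside 19.1% of all such genes. The difference between the lines was not tested. Set beside E8 D7, 17 of 28 members went lower in *Tsix*-stop KO and higher in E8 KO, beside 26.5%, and 8 lay on the same side, beside 18.1%.

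Type IV genes lie in pairs that point away from each other, and both of *Col4a1* and *Col4a2* were called in each comparison of KO with wt but that of *Tsix*-stop D0. *Col4a1* (chromosome 8, 11198423 to 11312826, minus strand, GRCm38) and *Col4a2* (11312805 to 11449287, plus strand) have annotated starts that overlap by 22 bases. These bases, read from the RefSeq promoter table on GRCm38.p6 at chr8:11312805-11312826 on the plus strand, are shown for the join of the pair, with a GC box in capitals:
*Col4a1* and *Col4a2* starts: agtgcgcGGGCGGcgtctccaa
The ratio of *Col4a1* to *Col4a2* TPM stayed between 1.19 and 2.79 over the 10 *Tsix*-stop libraries and between 1.77 and 2.15 over the 8 E8 libraries. For comparison, the ratio of *Col1a1* to *Col1a2*, which lie on different chromosomes, ranged from 1.34 to 11.0 and from 1.98 to 26.5. That of *Col4a5* to *Col4a6*, at lower levels, ranged from 1.19 to 4.75 and from 1.04 to 4.04. *Col4a3* and *Col4a4* passed the filter in neither line. Whether counting used the strand is not stated in the sources used here, so reads in these overlapping bases cannot be assigned to a gene.

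*Col4a5* (X, 141475385 to 141689234, plus strand) and *Col4a6* (141165403 to 141474076, minus strand) have 1308 bases between them. The sequences upstream of both starts and of *Col3a1*, the member with the largest rise between wt D0 and D15, are given as examples of promoters of genes that moved. They are from RefSeq on GRCm38.p6, written 5′ to 3′ on the strand of the gene up to the base before the annotated start, at chrX:141475169-141475384 (plus), chrX:141474077-141474326 (minus) and chr1:45311288-45311537 (plus). Capitals mark a CCAAT box in the first, a GC box spelled GGGCGG, here found on the other strand, in the second and a TATA box in the third, which was searched as TATAAA; each was searched on both strands:
*Col4a5*: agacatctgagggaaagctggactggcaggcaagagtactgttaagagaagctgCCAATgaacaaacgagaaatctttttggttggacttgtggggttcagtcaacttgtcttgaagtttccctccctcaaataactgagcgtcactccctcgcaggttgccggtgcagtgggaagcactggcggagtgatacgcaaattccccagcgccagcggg
*Col4a6*: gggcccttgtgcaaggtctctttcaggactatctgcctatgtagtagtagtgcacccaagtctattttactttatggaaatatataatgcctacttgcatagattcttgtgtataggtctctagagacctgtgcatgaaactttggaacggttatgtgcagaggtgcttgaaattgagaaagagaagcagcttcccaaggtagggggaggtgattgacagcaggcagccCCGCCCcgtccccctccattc
*Col3a1*: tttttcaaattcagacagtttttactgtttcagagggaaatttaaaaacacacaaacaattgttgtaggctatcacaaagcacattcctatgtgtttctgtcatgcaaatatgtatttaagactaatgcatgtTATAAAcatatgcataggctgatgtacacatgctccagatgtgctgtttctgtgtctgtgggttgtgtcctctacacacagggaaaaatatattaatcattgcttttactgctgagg
Each stretch holds 1 match. That of *Col4a5* ends before its GENCODE start at 141475385, while its RefSeq start is at 141475419. The 250 bases before the RefSeq start of *Col4a5* also held a GC box, which the stretch shown does not. The RefSeq table holds 38 promoters of 35 members. In the 250 bases before the start, the TATA box was in 13.2% of these and 12.4% of all 32851 promoters, the CCAAT box in 34.2% and 33.8%, and the GC box in 57.9% and 32.7%. These motifs do not overlap each other, and a match is a string of letters, not a site.

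Reads with SNPs told the alleles apart in *Tsix*-stop cells, where the non-*cast* X is the one to be silenced. At D0 *Col4a5* and *Col4a6* had at most 8 SNP reads in any library, too few to give a share. In wt D15, *Col4a5* had 5 and 12 non-*cast* reads beside 1107 and 653 of *cast*, so its non-*cast* share was 0.450% (95% Wilson interval 0.192 to 1.05) and 1.80% (1.04 to 3.13). In KO D15 it had 12 and 26 non-*cast* reads beside 74 and 169 of *cast*, a share of 14.0% (8.17 to 22.8) and 13.3% (9.26 to 18.8). In the control at D15 the share was 5.00% (2.88 to 8.53). *Col4a6* went the same way, with non-*cast* shares of 0.984% (0.421 to 2.28) and 1.11% (0.434 to 2.83) in wt, 10.0% (4.35 to 21.4) and 9.26% (5.11 to 16.2) in KO and 11.4% (7.16 to 17.8) in the control. The intervals cover counting error only, and those of wt and KO did not overlap for either gene.

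The non-*cast* share was higher in KO with called falls of *cast* reads. Non-*cast* reads of *Col4a5* numbered 5 to 26 in the wt and KO libraries of D15, too few for a missing call to mean no rise. In edgeR fits of the reads of each allele, *cast* reads of *Col4a5* changed by -2.69 ± 0.33 (adjusted p = 0.00014) and those of *Col4a6* by -2.43 ± 0.33 (adjusted p = 0.00033) at D15, where 4.94% of genes tested on *cast* reads were called higher and 12.7% lower. On non-*cast* reads *Col4a5* changed by 1.27 ± 0.69 (adjusted p = 0.19), which was not called, and *Col4a6* had too few reads to be tested, where 6.96% and 9.47% were called higher and lower. Over X-linked genes with at least 20 SNP reads the wt libraries of D15 had a median non-*cast* share of 29.1% and 31.6%, the KO libraries 45.7% and 41.3%, and the control 32.9%, so both genes lay below the median in each library. The median autosomal share was 50.0% to 51.6% over the 10 libraries.

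**Figure D5:**
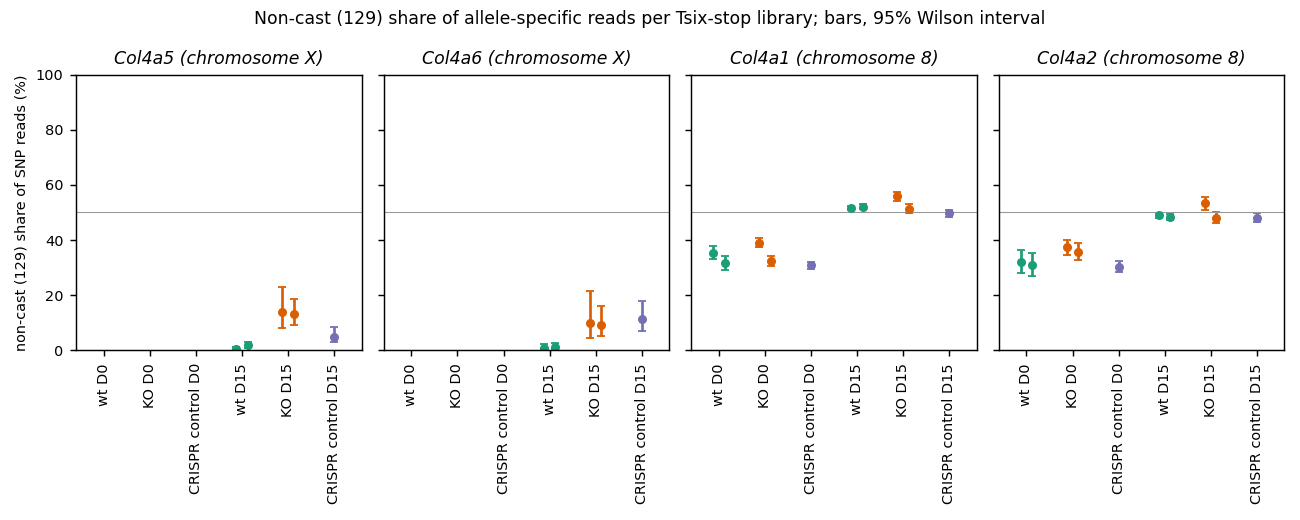
Share of SNP reads not from *cast* (vertical axis, percent) for the X-linked *Col4a5* and *Col4a6* and the autosomal *Col4a1* and *Col4a2* in each *Tsix*-stop library with at least 20 SNP reads (points; bars, 95% Wilson interval; line at 50%). *Col4a5* and *Col4a6* lie between 0.450% and 1.80% in wt D15 and between 9.26% and 14.0% in KO D15, and the autosomal pair moves from between 30.3% and 39.1% at D0 to between 48.1% and 55.8% at D15.

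Some autosomal members drew unequally on the alleles at D0 and evenly in wt at D15. *Col4a1* had non-*cast* shares of 35.4% and 31.6% in wt D0, 39.1% and 32.4% in KO D0 and 30.8% in the control, and 51.5% and 52.1% in wt D15. *Col4a2* had 32.2% and 31.1% in wt D0 and 48.9% and 48.4% in wt D15. *Col6a1* was almost wholly *cast* in wt D0, with non-*cast* shares of 3.54% (1.39 to 8.75) and 11.0% (5.88 to 19.6) over 113 and 82 reads, and at 49.6% and 49.0% over 6508 and 5229 reads in wt D15. In KO D15 it was at 30.6% (26.2 to 35.3) and 43.6% (38.9 to 48.3), and in the control at 49.2%. *Col5a1*, which starts fibrils with *Col5a2*, leaned away from *cast* at D0, with 68.3% and 70.2% in wt, and was at 50.6% and 49.7% in wt D15, 48.9% and 52.8% in KO D15 and 62.6% (59.5 to 65.6) in the control. *Col6a1* and *Col5a1* were chosen here after their shares were seen. These shares have no test, and the same sites need not be covered on both days.

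In E8 cells the alleles are given as separately scaled TPM, so their balance is read only between libraries. *Col4a5* had 0.103 and 0.252 TPM from BL6 in wt D7 and 3.22 and 3.20 TPM in KO D7, while its *cast* TPM went from 0.484 and 0.696 to 0 and 0. *Col4a6* had 0.0778 and 0.0217 TPM from BL6 in wt D7 and 1.55 and 1.32 TPM in KO D7, and 0.842 and 0.566 TPM from *cast* in wt D7 and 0 in both KO libraries of D7 and both of D15. At D15 *Col4a5* had 1.97 and 1.61 TPM from BL6 and 0.0668 and 0.0576 TPM from *cast* in KO. This was shared by the X as a whole: after rescaling to autosomal genes, the median X-linked gene had 46.4% and 46.7% from *cast* in wt D7 and 0% in both KO D7 libraries, and 45.8% and 45.5% in wt D15 against 0.0691% and 0% in KO D15. In E8 cells the KO of *Kdm6a* and the absence of *cast* X reads cannot be told apart.

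The genes that build and anchor collagens were followed by lists. Their counts stand beside the shares of all genes given above, which were 11.1% lower and 3.83% higher in *Tsix*-stop KO D15, 3.11% higher and 5.01% lower in *Tsix*-stop KO D0, 11.4% higher and 6.18% lower in E8 KO D7 and 7.67% higher and 3.08% lower in E8 KO D15. Of 20 genes of collagen folding and modification, 8 were called lower and 0 higher in *Tsix*-stop KO D15, and 11 of 19 tested higher and 0 lower in E8 KO D7. The summed list was at 4604 to 4905 TPM in *Tsix*-stop wt D15, 2240 to 2573 TPM in KO and 2914 TPM in the control. The lowest in *Tsix*-stop KO D15 were *P3h2*, a prolyl hydroxylase (-3.04 ± 0.24), and *Serpinh1*, the collagen chaperone HSP47 (-2.52 ± 0.30). The same genes led the rises in E8 KO D7, at 4.21 ± 0.06 and 4.17 ± 0.04, and *P4ha2*, a proline hydroxylase subunit, was at 3.08 ± 0.05. At D0 *Serpinh1* was lower (-2.16 ± 0.30) and *P3h2* higher (2.05 ± 0.47) in *Tsix*-stop KO, with 3 of the list called higher and 2 lower, and *P3h2* was under 1 TPM in every D0 library. In E8 KO D15, 5 were called higher and 0 lower.

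Of 14 genes of propeptide processing and cross-linking, 13 were tested in *Tsix*-stop cells and 8 in E8 cells, and 9 were called lower and 1 higher in *Tsix*-stop KO D15. Their sum was 645 to 695 TPM in wt D15, 174 to 230 TPM in KO and 241 TPM in the control. The lowest were *Adamts2*, which trims procollagen (-3.77 ± 0.43), *Lox*, which cross-links fibrils (-3.28 ± 0.97), and *Pcolce*, an enhancer of procollagen trimming (-3.04 ± 0.12). In *Tsix*-stop KO D0, 3 were called higher and 1 lower. In E8 KO D7 3 were called higher and 2 lower, led by *Bmp1*, the procollagen proteinase (4.29 ± 0.05), *Loxl2* (3.02 ± 0.04) and *Pxdn*, which cross-links type IV collagen (2.13 ± 0.03). In E8 KO D15 4 were called higher and 1 lower.

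Of 16 basement membrane partners of type IV collagen, 14 were tested in each line, and 10 were called lower and 0 higher in *Tsix*-stop KO D15, led by the laminin chain *Lama4* (-3.96 ± 0.41) and the matrix protein *Sparc* (-2.07 ± 0.22). Their sum was 3515 to 3849 TPM in wt D15, 1468 to 1629 TPM in KO and 1906 TPM in the control. At D0, 4 were called lower and 0 higher. In E8 KO D7 5 were called higher and 1 lower, led by *Lama1* (5.76 ± 0.06), *Sparc* (4.09 ± 0.05) and *Lamb1* (3.47 ± 0.04), and 5 higher and 0 lower in E8 KO D15. Of 7 collagen receptors, 6 were tested in *Tsix*-stop cells and 2 in E8 cells, and 4 were called lower in *Tsix*-stop KO D15, among them *Ddr2*, the receptor of fibrillar collagen (-3.63 ± 0.49), and 1 at D0, while 1 was called higher in E8 KO on each day, *Itgb1* at D7 (1.30 ± 0.03) and *Ddr1* at D15 (1.56 ± 0.07). The receptors summed to 819 to 1022 TPM in *Tsix*-stop wt D15, 283 to 473 TPM in KO and 497 TPM in the control. Of 8 collagenases and gelatinases, all 5 tested were called lower in *Tsix*-stop KO D15 and 1, *Mmp16*, higher at D0, and their sum was 530 to 559 TPM in wt D15, 95.6 to 133 TPM in KO and 138 TPM in the control. In E8 KO 3 of 4 tested were called higher at D7 and 2 at D15, led by *Mmp14* (2.66 ± 0.05) and *Mmp9* (2.61 ± 0.06) at D7.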

How the data were processed

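RNA-seq was analysed in 10 *Tsix*-stop and 8 E8 libraries, which the labels group by cell line, genotype and day. The values that the authors deposited for *Tsix*-stop cells (129 × *cast*) are estimated counts, not normalized, and 7.10% of them are not whole. Those on the 129 genome, rounded, served as the diploid level, and reads with 129 SNPs as non-*cast* reads. For E8 cells the authors deposited TPM, and values of the 537 repeated symbols were added up. The submitters' processing notes name mm10, Bowtie2 2.4.5 and TopHat2 2.1.1. The annotation and the use of strand are not given in the sources used here. *Tsix*-stop TPM was computed from the counts and the exon union of GENCODE vM21 (GRCm38), to which all 44 members matched by symbol. Reads of *Col9a3* overlap an antisense gene over 6.07% of its exon bases, and other members by less.

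Counts of the 8 wt and KO libraries were fitted in edgeR 4.0.16 (quasi-likelihood, TMM factors 0.936 to 1.07) for the genes that reached 2.5 CPM in 2 or more libraries. E8 values were fitted in limma 3.58.1 on log2(TPM + 1) with a variance trend, for the genes that reached 2.5 TPM in 2 or more. A call needed a Benjamini-Hochberg FDR no higher than 0.1 together with a 2-fold change. SE is that of the log2 value and, in edgeR, was derived from the F statistic. Both fits were checked on simulated data in which only genes well above the filter were changed, so members with few counts were not covered. Alternatives included DESeq2 1.42.0.

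Named with values per library were the 3 highest members of each class in *Tsix*-stop wt D15, *Col4a5* and *Col4a6*, up to 3 largest called rises and falls in each comparison of KO with wt, and up to 3 largest called interactions of each line. Members and lists were chosen with earlier results of these data known.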

Additional observations from a re-analysis of the deposited data

Results flagged for a closer look

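The effect of KO on collagen genes differed between D0 and D15 in *Tsix*-stop cells for 22 members by the interaction term of the edgeR fit. Its largest log2 values were -6.36 for *Col6a3*, -6.03 for *Col25a1* and -5.25 for *Col11a1*. Of these, *Col25a1* rests on 2 counts in each wt D0 library. Of the 20 members with a lower interaction, 6 reached the filter in wt groups alone.

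In E8 cells the effect of KO differed between D7 and D15 for 8 members by the interaction term of the limma fit, with log2 values of -2.69 for *Col4a2*, -2.63 for *Col4a1* and -1.94 for *Col1a2*.

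At D15, 18 members had both KO libraries on opposite sides of both wt libraries in the 2 lines, 17 lower in *Tsix*-stop KO and higher in E8 KO, and 1, *Col6a5*, the other way. This difference between lines was not tested.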

How the results depend on the processing

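Counts of called collagen genes held within 1.5 times under RLE size factors, DESeq2, no filter and counts on the *cast* genome in *Tsix*-stop cells. With the CRISPR control counted as wt, the called members fell to 0 at *Tsix*-stop D0 (20 genes in all) and to 2 for the interaction. In E8 cells, an FDR of 0.05 without a minimum fold gave 8 members for wt D15 against D7, 18 for KO D15 against D7, 17 for KO against wt at D15 and 16 for the interaction. A minimum of 2.5 TPM in at least 4 libraries left 13 members tested, with 4 called for KO D15 against D7 and 3 for the interaction, and a pseudocount of 0.1 gave 3 for wt D15 against D7. Making the median tested gene equal moved the E8 D7 median over all genes from 0.10 to -0.11 and gave 9 higher and 3 lower members there, and 7 and 2 at D15. Leaving out 1 library gave 26 to 32 members for *Tsix*-stop wt D15 against D0, 27 to 32 for KO, 6 to 12 for KO against wt at D0, 20 to 30 at D15 and 13 to 26 for the interaction. In E8 cells the ranges were 1 to 1, 6 to 9, 8 to 12 at D7, 9 to 11 at D15 and 5 to 9. Changes of *Col4a5* were 0.57 to 2.15 on non-*cast* reads and -3.45 to -2.19 on *cast* reads, and those of *Col4a6* -3.14 to -1.95 on *cast* reads. Correlations of same-numbered libraries ranged from -0.16 to 0.20, the highest being that of *Tsix*-stop KO D0 with KO D15. In order of replicate, *Kdm6a* was at 55.6 and 21.2 TPM in KO D0 and 41.6 and 12.8 TPM in KO D15. Whether replicate numbers follow the clones in *Tsix*-stop KO was not tested, and the main fit used no pairs. A replicate block gave 27 in place of 26 members at *Tsix*-stop D15 and 23 in place of 22 for the interaction, 11 at D0, and the same counts in E8 cells; crossed pairing, added after seeing the data, gave 27 at *Tsix*-stop D15 and 12 at D0. Of 1504 settings of 93 named results 1451 kept their call and direction, 52 lost the call, 26 of the 53 that did not hold being with the CRISPR control counted as wt, and 1 reversed, the interaction of *Col9a1* without KO D0 replicate 1 (0.07, in a range of -5.24 to 0.07 over left-out libraries, and -4.26 with all). Causes were not tested. Low counts limit *Col4a5* and *Col4a6* at D0.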
